A study of Homo sapiens with 6 samples.

Results

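HSD11B1 encodes 11β-hydroxysteroid dehydrogenase type 1, and it was examined here with 5 further genes of glucocorticoid action: H6PD, NR3C1, FKBP5, TSC22D3 and PER1. The 6 genes were taken by name from a transcript table of 27852 gene symbols, after each transcript had been counted once and summed by symbol. They were chosen by earlier results on the same libraries, in which HSD11B1 was selected on its HPLM to DMEM ratio in every line, so the difference between media is given below as a description for all 6 genes and supports nothing by itself. The differences between cell lines were not used in choosing the genes.

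Polyadenylated RNA was sequenced with a strand-specific kit from HSC3, HSC4 and SAS, established cell lines from human squamous carcinoma of the mouth. Each line was grown in HPLM, a medium composed to resemble human plasma, and in DMEM, a classical basal medium whose nutrient levels are not those of blood. Both media carried heat-inactivated fetal bovine serum and an antibiotic-antimycotic mix, and the growth protocol names no added steroid. That gave 6 libraries, 1 per combination, and the 3 lines serve as replicates of a medium and the 2 media as replicates of a line. Nothing in the labels gives separate cultures within a line, and p-values measure only the spread over these libraries.

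The enzyme 11β-hydroxysteroid dehydrogenase type 1 sits in the endoplasmic reticulum and turns inactive cortisone into the active hormone cortisol. It needs NADPH inside the reticulum, which hexose-6-phosphate dehydrogenase, the product of H6PD, makes from glucose 6-phosphate. The enzyme encoded by HSD11B2 runs the opposite reaction and is best known in kidney. Cortisol binds the glucocorticoid receptor, encoded by NR3C1, which moves to the nucleus and acts on genes such as FKBP5, TSC22D3 and PER1. FKBP5 is a co-chaperone that lowers the affinity of the receptor for hormone, TSC22D3 encodes the anti-inflammatory protein GILZ, and PER1 is a repressor of the circadian clock.

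Sequences in front of transcription starts are printed first for 5 of the genes, for the transcripts whose values are followed below, because they are the stretches where factors acting on these genes could be looked for. They are the 250 bases before a start in the RefSeq promoter table for GRCh38.p14, written 5′ to 3′ on the strand of the gene, with matches to the motifs searched in capitals. A window is assigned to the transcripts of GENCODE 29 that start within 100 bases of its start site. The window of HSD11B1 belongs to HSD11B1-201 and HSD11B1-203, and that of H6PD to H6PD-203, which is not the leading transcript of that gene. The first TSC22D3 window serves TSC22D3-206 and the second TSC22D3-205, and those of FKBP5 and PER1 serve FKBP5-201 and PER1-201. By GENCODE 29, TSC22D3-206, TSC22D3-205, PER1-201 and FKBP5-201 start 73, 37, 31 and 22 bases before the RefSeq start, inside their windows. H6PD-203 starts 3 bases before it. The last bases of those windows therefore lie after the start of these transcripts.
HSD11B1, chr1:209685929-209686178, plus strand: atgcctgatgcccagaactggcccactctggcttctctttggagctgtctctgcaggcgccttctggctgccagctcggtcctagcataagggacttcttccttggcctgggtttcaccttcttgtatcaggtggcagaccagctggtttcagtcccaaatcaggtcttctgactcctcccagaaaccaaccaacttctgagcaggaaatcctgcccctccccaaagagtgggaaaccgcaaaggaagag
H6PD, chr1:9239597-9239846, plus strand: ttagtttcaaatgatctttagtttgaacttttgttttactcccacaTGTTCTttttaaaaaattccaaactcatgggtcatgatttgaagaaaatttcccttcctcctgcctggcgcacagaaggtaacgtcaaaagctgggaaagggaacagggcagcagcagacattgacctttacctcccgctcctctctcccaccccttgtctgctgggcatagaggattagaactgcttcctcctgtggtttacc
FKBP5, chr6:35688916-35689165, minus strand: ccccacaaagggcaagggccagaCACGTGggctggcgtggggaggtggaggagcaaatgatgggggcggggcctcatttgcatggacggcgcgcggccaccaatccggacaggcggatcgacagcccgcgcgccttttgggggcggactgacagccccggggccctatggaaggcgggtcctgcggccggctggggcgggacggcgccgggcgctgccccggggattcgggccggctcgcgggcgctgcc
TSC22D3, chrX:107717063-107717312, minus strand: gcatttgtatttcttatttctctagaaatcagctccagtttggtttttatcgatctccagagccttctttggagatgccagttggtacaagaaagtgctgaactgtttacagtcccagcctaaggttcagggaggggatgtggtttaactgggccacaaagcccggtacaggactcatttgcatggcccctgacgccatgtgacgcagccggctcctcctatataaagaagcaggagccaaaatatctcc
TSC22D3, chrX:107716509-107716758, minus strand: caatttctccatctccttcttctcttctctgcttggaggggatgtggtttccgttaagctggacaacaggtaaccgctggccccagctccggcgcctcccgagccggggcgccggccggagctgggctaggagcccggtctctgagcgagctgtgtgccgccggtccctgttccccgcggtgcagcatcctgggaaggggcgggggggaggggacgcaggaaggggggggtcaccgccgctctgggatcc
PER1, chr17:8152405-8152654, minus strand: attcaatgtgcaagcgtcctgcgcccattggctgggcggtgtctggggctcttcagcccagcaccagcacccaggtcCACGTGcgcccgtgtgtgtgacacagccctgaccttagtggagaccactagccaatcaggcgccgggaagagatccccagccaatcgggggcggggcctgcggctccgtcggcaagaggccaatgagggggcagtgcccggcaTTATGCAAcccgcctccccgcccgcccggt

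The table held 16 such windows for the 6 genes, and all 6 genes had at least 1. Both strands were searched for the full glucocorticoid response element, which is AGAACA and TGTTCT with 3 bases of any kind between them, for its half-site TGTTCT alone, the C/EBP site TTGCNNAA, the E-box CACGTG and the cyclic AMP response element TGACGTCA. The full response element was found in 0 of the 16 windows and in 0.00286% of all 34943 windows. An exact match is so rare over all windows that its absence here says nothing of these genes. Variants of the element with other letters were not searched. Its half-site, which is part of the full element, was in 1 of 16 windows and 12.4% of all. That half-site lay 204 to 199 bases before the H6PD start. The C/EBP site was in 2 of 16 windows, against 9.06% of all. It stood in an NR3C1 window that is not printed and 30 to 23 bases before the RefSeq start of PER1. PER1-201 starts 31 bases before that RefSeq start, so the PER1 match lies after the start of this transcript. The E-box, the site bound by the clock factors CLOCK and BMAL1, was in 2 of 16 windows, against 6.32% of all: 227 to 222 bases before the FKBP5 start and 173 to 168 bases before the PER1 start. The cyclic AMP response element was in 0 of 16 and in 1.63% of all. A match says only that the letters are there, and the windows do not reach distant enhancers.

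Library totals lay between 17715962 and 20171750 estimated counts. Levels are given as CPM, the estimated count relative to library size after TMM scaling. The deposited values are corrected for transcript length, so levels of different genes can be set side by side. Of 8 squamous epithelial markers, 8 exceeded 1 CPM in some library, and their sum lay between 1859 and 5007 CPM in HPLM and between 2523 and 6011 CPM in DMEM. Among markers of tissues known for HSD11B1, 0 of 4 adipocyte markers exceeded 1 CPM, their sum was at most 0.919 CPM in HPLM and 0.262 CPM in DMEM, and LEP rounded to 0 counts in every library. Of 4 hepatocyte markers 1 exceeded it, SERPINA1, which was higher in HPLM in all 3 lines and made up most of a sum of 7.62 to 550 CPM in HPLM and 4.63 to 378 CPM in DMEM, while ALB stayed at or below 0.191 CPM. Fibroblast markers summed to 3.71 to 14.6 CPM in HPLM and 3.18 to 14.0 CPM in DMEM, with 3 of 8 above 1 CPM and COL3A1 at 0. Leukocyte markers summed to 55.2 to 175 CPM in HPLM and 45.7 to 147 CPM in DMEM, with 5 of 8 above 1 CPM, CD68 and CD74 the highest and CD3E at or below 0.108 CPM. Of these 8 leukocyte markers, 3 were higher in HPLM in all 3 lines, and the part of these markers in the results below was not tested. Endothelial markers summed to at most 2.49 CPM in HPLM and 1.00 CPM in DMEM, with 1 of 4 above 1 CPM and KDR rounding to 0 counts. In bulk RNA a difference in the number of expressing cells and a difference in RNA per cell cannot be told apart.

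HSD11B1, on chromosome 1 at 209686178 to 209734950 of GRCh38 on the plus strand, was in HPLM at 0.564 CPM (HSC3), 0.432 (HSC4) and 29.7 (SAS), against 0.0524 (HSC3), 0.0478 (HSC4) and 10.6 (SAS) in DMEM. Every line had more HSD11B1 RNA in HPLM, but SAS in DMEM stood far above the other lines in HPLM, so the groups overlapped, as they did for all 6 genes and for all but 2.64% of the genes tested. In SAS the values behind these levels were 560 estimated counts in HPLM and 196 in DMEM, a ratio of 2.81 (95% exact conditional binomial interval 2.39 to 3.33). In HSC3 they were 11 in HPLM and 1 in DMEM, a ratio of 10.8 with an interval of 1.57 to 464, and in HSC4 they were 8 in HPLM and 1 in DMEM, a ratio of 9.05 with an interval of 1.21 to 402. Such an interval covers counting error only and is approximate, since the estimated counts are scaled abundances and not reads. The size of the ratio in HSC3 and HSC4 therefore rested on about 1 estimated count per DMEM library.

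**Figure D1:**
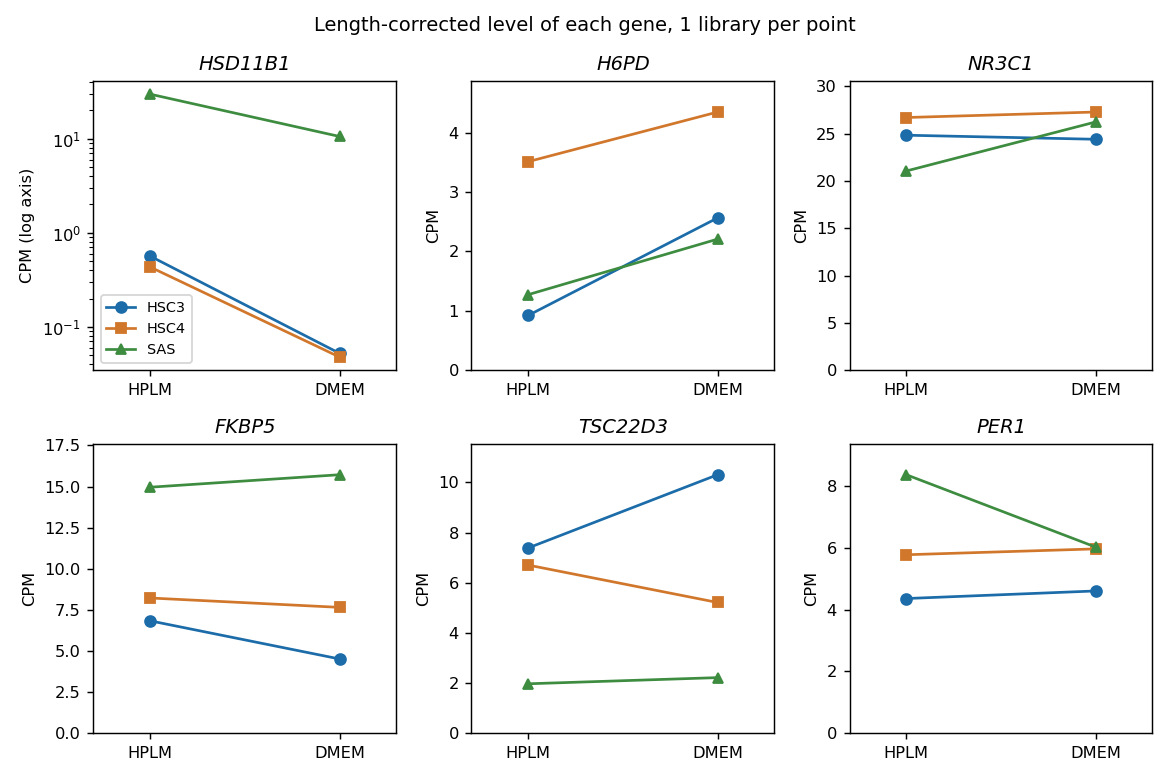
Level of each gene in CPM (vertical axis, logarithmic for HSD11B1 and linear from 0 for the others) in HPLM and DMEM, 1 library per point and 1 line of points per cell line. SAS lies far above HSC3 and HSC4 for HSD11B1, and HPLM and DMEM values overlap for all 6 genes.

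On the log2 scale with a prior count of 2, the HPLM to DMEM ratio of HSD11B1 was 2.10 (HSC3), 1.82 (HSC4) and 1.48 (SAS). A ratio of 2-fold or more in all 3 lines was shared by 29 of the 13236 genes tested, or 0.219%. The fit over the lines gave a log2 fold change of 1.78 ± 0.34 (SE, 3 lines). In this contrast 0 of the 6 genes were called at an adjusted p under 0.05 by edgeR's quasi-likelihood test, against 0.00756% of all genes, which is 1 gene. At an unadjusted p under 0.05 there was 1 of the 6, against 10.1% of all genes. That was HSD11B1, whose adjusted p was 0.33 in edgeR, 0.014 in DESeq2 and 0.15 in limma-voom. DESeq2 called 1 of the 6, against 0.96% of all genes, and limma-voom 0, against 0.068%. HSD11B1 passed the low-count filter of 0.514 CPM of the unscaled library total through exactly 3 libraries, both SAS libraries and HSC3 in HPLM, and HSC4 in HPLM was just outside it at 0.452.

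The transcripts behind HSD11B1 differed between libraries. HSD11B1-201 and HSD11B1-203 start at 209686269 and 209686180, next to the window printed for the gene, and HSD11B1-202 starts further downstream at 209704846. HSD11B1-201 is annotated with 901 bases and 278.7 codons, not a whole number, against 292 codons in HSD11B1-203 and in HSD11B1-202. In SAS, HSD11B1-201 carried 84.9% of the gene's value in HPLM and 83.6% in DMEM, HSD11B1-203 carried 14.2% in HPLM and 12.9% in DMEM, and HSD11B1-202 carried 0.979% in HPLM and 3.52% in DMEM. In HSC3 all of the value was on HSD11B1-201 in HPLM and on HSD11B1-202 in DMEM. In HSC4 it was all on HSD11B1-203 in HPLM and on HSD11B1-202 in DMEM. The DMEM values of HSC3 and HSC4 were thus 1.10 and 1.19 estimated counts of a transcript that made up little of the gene in SAS. HSD11B1 overlaps an antisense gene on the opposite strand that was not analysed here, and whether strand was used in quantification is not given in the sources used here.

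H6PD, on chromosome 1 at 9234775 to 9271337, supplies the NADPH for that enzyme. Its level was 0.923 CPM (HSC3), 3.51 (HSC4) and 1.27 (SAS) in HPLM, against 2.57 (HSC3), 4.35 (HSC4) and 2.21 (SAS) in DMEM. It was lower in HPLM within each line, and the groups overlapped. The log2 ratios were −1.38 (HSC3), −0.30 (HSC4) and −0.75 (SAS), and a lower value in all 3 lines was found in 17.2% of the genes tested. The fitted log2 fold change was −0.82 ± 0.34 (SE, 3 lines) and did not pass (edgeR, adjusted p = 0.50).

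Of H6PD, the transcript H6PD-201, whose 791 codons encode the full enzyme, carried 69.3% of the value in HPLM and 69.5% in DMEM in HSC3, 89.0% in HPLM and 60.9% in DMEM in HSC4, and 45.8% in HPLM and 55.5% in DMEM in SAS. H6PD-203, the transcript of the printed H6PD window, is also annotated as protein-coding, with 802 codons. The share of H6PD-203 differed between media by more than that of H6PD-201 in HSC4 and in SAS. It was 2.64% in HPLM and 39.1% in DMEM in HSC4, and 42.1% in HPLM and 18.4% in DMEM in SAS. In HSC4 the estimated count of H6PD-203 was 1.71 in HPLM and 35.8 in DMEM, while H6PD-201 had 57.8 in HPLM and 55.7 in DMEM. By these estimates the lower HSC4 level in HPLM lay in H6PD-203. In SAS, H6PD-203 had 10.3 estimated counts in HPLM and 7.45 in DMEM. H6PD-201 had 11.2 in HPLM and 22.5 in DMEM there, and H6PD-202 had 2.96 in HPLM and 10.6 in DMEM. The lower SAS level in HPLM therefore lay in H6PD-201 and H6PD-202.

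HSD11B2, the opposing enzyme, was at 1.23 CPM (HSC3), 6.70 (HSC4) and 3.61 (SAS) in HPLM, against 2.15 (HSC3), 4.40 (HSC4) and 3.82 (SAS) in DMEM. Its fitted log2 fold change between media was −0.04 ± 0.32 (SE, 3 lines), and it was lower in HPLM in HSC3 and SAS and higher in HSC4. In SAS, HSD11B1 stood above HSD11B2 by 8.24 times in HPLM and 2.76 times in DMEM. In the other lines the order was the opposite: HSD11B2 stood above HSD11B1 by 2.18 times in HPLM and 41 times in DMEM in HSC3, and by 15.5 times in HPLM and 92 times in DMEM in HSC4. The ratio of HSD11B1 to H6PD was 23.3 in HPLM and 4.78 in DMEM in SAS, 0.611 in HPLM and 0.0204 in DMEM in HSC3, and 0.123 in HPLM and 0.011 in DMEM in HSC4. These are ratios of RNA levels corrected for length and say nothing of enzyme activity.

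**Figure D2:**
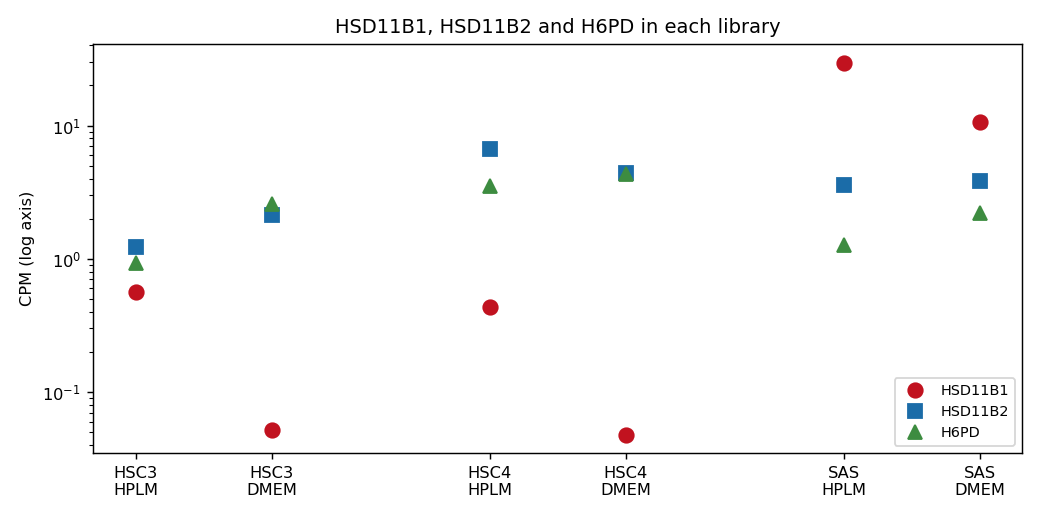
Level of HSD11B1, HSD11B2 and H6PD in CPM (vertical, logarithmic axis) in each of the 6 libraries. HSD11B1 is the highest of the 3 in SAS in both media and the lowest of the 3 in HSC3 and HSC4 in both media.

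NR3C1, the receptor gene on chromosome 5 at 143277931 to 143435512, was the most even of the 6. It was at 24.8 CPM (HSC3), 26.7 (HSC4) and 21.1 (SAS) in HPLM, against 24.4 (HSC3), 27.3 (HSC4) and 26.2 (SAS) in DMEM. The log2 ratios of 0.03, −0.03 and −0.32 in HSC3, HSC4 and SAS gave a fitted value of −0.11 ± 0.11 (SE, 3 lines). NR3C1-203, with 777 codons the length of the classical receptor, was the leading transcript and carried 62.8% to 72.9% of the value in the 6 libraries. NR3C1-205, with 742 codons, the length of the beta form that does not bind cortisol, was at 0.692% in HSC3 in DMEM and at 0 in the other 5 libraries. The mineralocorticoid receptor gene NR3C2, whose product also binds cortisol, was at 0.287 CPM or lower in every library and was not tested.

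FKBP5, on chromosome 6 at 35573585 to 35728583, was at 6.82 CPM (HSC3), 8.21 (HSC4) and 14.96 (SAS) in HPLM, against 4.50 (HSC3), 7.64 (HSC4) and 15.7 (SAS) in DMEM. SAS was the highest line in both media, and the media differed mainly in HSC3. The log2 ratios were 0.59 (HSC3), 0.10 (HSC4) and −0.07 (SAS), and the fitted value was 0.19 ± 0.18 (SE, 3 lines). FKBP5-201, which encodes the full protein of 457 codons and belongs to the printed FKBP5 window, carried 90.1% to 98.7% of the value.

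TSC22D3, on chromosome X at 107713221 to 107777342, was at 7.39 CPM (HSC3), 6.70 (HSC4) and 1.96 (SAS) in HPLM, against 10.3 (HSC3), 5.21 (HSC4) and 2.21 (SAS) in DMEM. SAS was the lowest line in both media, and HPLM was lower in HSC3 and SAS and higher in HSC4. The fitted log2 fold change was −0.10 ± 0.23 (SE, 3 lines), from log2 ratios of −0.48 (HSC3), 0.36 (HSC4) and −0.16 (SAS). TSC22D3-206, whose 134 codons are the length of GILZ, and TSC22D3-205, with 77 codons, together carried most of the value. In HSC3, TSC22D3-206 had 32.9 estimated counts in HPLM and 85.0 in DMEM, whereas TSC22D3-205 had 95.9 in HPLM and 79.3 in DMEM. By these estimates the lower TSC22D3 level of HSC3 in HPLM lay in TSC22D3-206 and not in TSC22D3-205. The error of the division between the transcripts was not assessed. TSC22D3 overlaps NCBP2L on the opposite strand, so reads may have been divided between the genes with error.

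PER1, on chromosome 17 at 8140472 to 8156506, was at 4.36 CPM (HSC3), 5.78 (HSC4) and 8.38 (SAS) in HPLM, against 4.61 (HSC3), 5.97 (HSC4) and 6.03 (SAS) in DMEM. Only SAS was higher in HPLM, with log2 ratios of −0.08 (HSC3), −0.05 (HSC4) and 0.47 (SAS) and a fitted value of 0.12 ± 0.20 (SE, 3 lines). By the transcript estimates, whose error was not assessed, the excess of SAS in HPLM was not on the full-length transcript. PER1-201, with 1290 codons, had 58.4 estimated counts in HPLM and 66.9 in DMEM. The excess lay on short transcripts, among them PER1-219, a retained intron of 461 bases with 31.3 in HPLM and 0 in DMEM. Another was PER1-203 of 589 bases with 34.4 in HPLM and 14.6 in DMEM. After the values were weighted by transcript length, a choice made after seeing the data, SAS had 235 in HPLM and 236 in DMEM, and the fitted log2 fold change became −0.07.

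**Figure D3:**
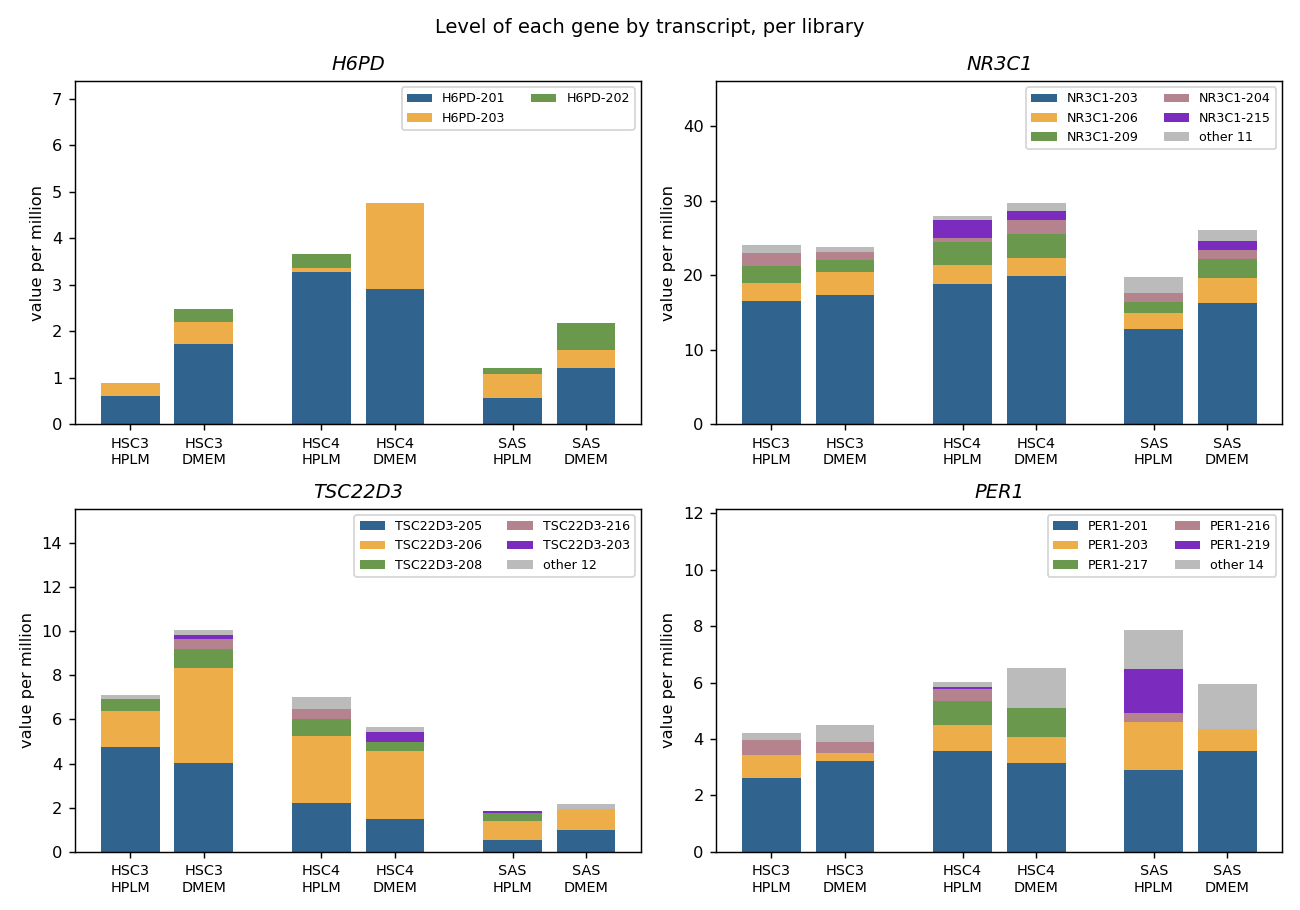
Level of H6PD, NR3C1, TSC22D3 and PER1 in each library, in CPM of the unscaled library total (vertical axis), stacked by transcript with up to 5 leading transcripts in colour and the rest in grey. In TSC22D3 of HSC3 the segment of TSC22D3-206 is smaller in HPLM than in DMEM, and PER1-219 appears in SAS in HPLM.

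**Figure D4:**
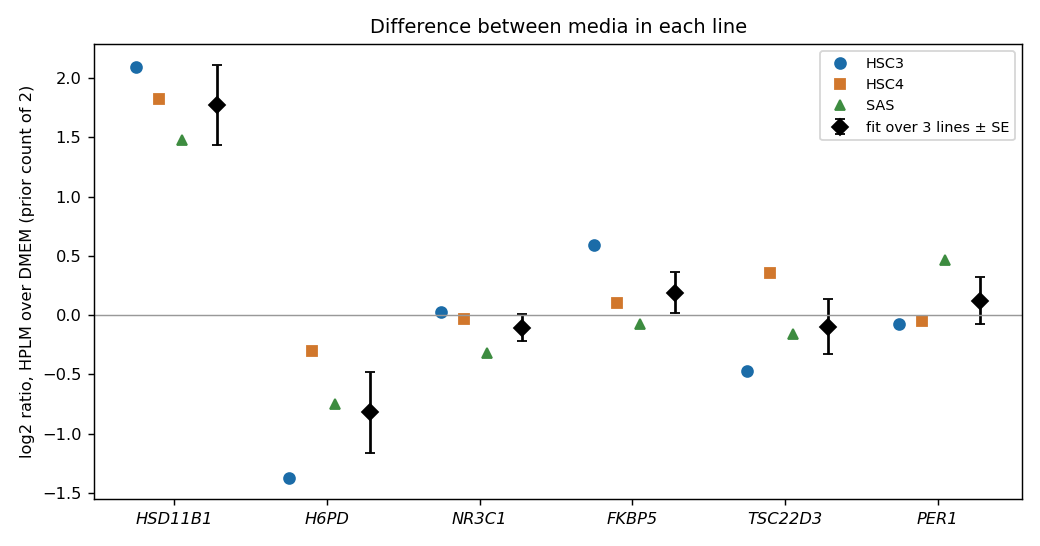
HPLM to DMEM difference of each gene on the log2 scale (vertical axis) in HSC3, HSC4 and SAS, 1 point per line, with the fitted value and its standard error in black. All 3 lines lie above 0 for HSD11B1 and below 0 for H6PD, and the lines fall on both sides of 0 for the other 4 genes.

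Between lines the 6 genes divided more clearly. In SAS against HSC3, 3 of the 6 were called by edgeR's quasi-likelihood test, or 50%, against 39.4% of all genes tested, and in SAS against HSC4 it was again 3 of the 6, against 41.3% of all genes. The called genes were HSD11B1, FKBP5 and TSC22D3 in both contrasts. With so few genes and such a background, the share of 3 in 6 is not a result about the genes as a group. In HSC4 against HSC3, 0 of the 6 were called by edgeR, against 37.4% of all genes, with 1 at an unadjusted p under 0.05, and DESeq2 called 0, against 33.6% of all genes, and limma-voom 1, H6PD, against 39.8%.

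HSD11B1 averaged 20.1 CPM over the media in SAS, 0.308 CPM in HSC3 and 0.24 CPM in HSC4. The log2 fold change was 6.11 ± 0.41 in SAS against HSC3 and 6.47 ± 0.43 in SAS against HSC4 (SE, 2 libraries per line; edgeR, adjusted p = 0.00060 and 0.00058). Since the gene entered the test mainly through the SAS libraries, a difference towards SAS was bound to be found there, and it stands as a description. The difference between HSC4 and HSC3 did not pass (log2 fold change −0.36 ± 0.64 in HSC4 against HSC3).

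FKBP5 rose in SAS, at a mean of 15.3 CPM against 5.66 CPM in HSC3 and 7.93 CPM in HSC4. Its log2 fold change was 1.45 ± 0.22 in SAS against HSC3 (edgeR, adjusted p = 0.0044) and 0.96 ± 0.21 in SAS against HSC4 (edgeR, adjusted p = 0.016). The call against HSC4 ended when 1 of 3 libraries was left out, with a log2 fold change of 0.89 without HSC4 in HPLM (edgeR, adjusted p = 0.096), 1.00 without HSC4 in DMEM (edgeR, adjusted p = 0.084) and 0.74 without SAS in DMEM (edgeR, adjusted p = 0.12). The difference between HSC4 and HSC3, 0.50 ± 0.22 on the log2 scale, did not pass.

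TSC22D3 fell in SAS, at a mean of 2.09 CPM against 8.85 CPM in HSC3 and 5.95 CPM in HSC4. Its log2 fold change was −2.08 ± 0.29 in SAS against HSC3 (edgeR, adjusted p = 0.0037) and −1.52 ± 0.30 in SAS against HSC4 (edgeR, adjusted p = 0.010). Here too the call against HSC4 ended without 1 of 3 libraries, with −1.15 without HSC4 in HPLM (edgeR, adjusted p = 0.064), −1.45 without SAS in HPLM (edgeR, adjusted p = 0.061) and −1.57 without SAS in DMEM (edgeR, adjusted p = 0.054). FKBP5 and TSC22D3, both known to be induced by the receptor, thus had opposite orders of the lines, with SAS highest for FKBP5 and lowest for TSC22D3.

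NR3C1 did not pass in any pair of lines, with log2 fold changes of −0.06 ± 0.14 in SAS against HSC3, −0.20 ± 0.14 in SAS against HSC4 and 0.13 ± 0.14 in HSC4 against HSC3. PER1 averaged 7.21 CPM in SAS, 5.88 CPM in HSC4 and 4.48 CPM in HSC3, and its log2 fold change of 0.67 ± 0.25 in SAS against HSC3 missed the threshold (edgeR, adjusted p = 0.075). H6PD averaged 3.93 CPM in HSC4 against 1.74 CPM in HSC3, a log2 fold change of 1.295 ± 0.415 (edgeR, adjusted p = 0.053), and was 1.74 CPM in SAS, a log2 fold change of −1.23 ± 0.41 against HSC4 (edgeR, adjusted p = 0.057). Both H6PD differences passed without a scaling factor, at 1.44 (edgeR, adjusted p = 0.036) and −1.38 (edgeR, adjusted p = 0.038). The first passed in limma-voom at 1.18 (adjusted p = 0.047), and the second did not, at −1.14 (adjusted p = 0.065). Neither passed in DESeq2, at 1.32 (adjusted p = 0.099) and −1.24 (adjusted p = 0.12). With 1 library left out, the first ran from 0.86 to 1.80 and the second from −1.65 to −0.82.

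Other genes of the pathway were taken from 9 lists with 160 entries, 156 of them in the table and 129 tested. In the medium contrast 0 genes of these lists were called by edgeR, limma-voom called 0, and DESeq2 calls included ANGPTL4, DUSP1, CSF3, CXCL2 and IL1A. Counts below are therefore at an unadjusted p under 0.05 in edgeR, which 5.57% of all genes met with a higher and 4.55% with a lower value in HPLM. The median log2 fold change over all genes was 0.00.

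Of 26 tested genes known to be induced by glucocorticoids, 5 were higher in HPLM at that p and 0 lower, 8 were higher and 1 lower in all 3 lines (16.9% and 17.2% of all genes), and the list median was 0.22. The lead was ANGPTL4, an inhibitor of lipoprotein lipase that also responds to fatty acid receptors, with a log2 fold change of 1.84 ± 0.24 (SE, 3 lines). DUSP1, a phosphatase that shuts down MAP kinases, was at 3.28 CPM (HSC3), 6.59 (HSC4) and 29.4 (SAS) in HPLM, against 1.68 (HSC3), 3.63 (HSC4) and 12.4 (SAS) in DMEM, a log2 fold change of 1.04 ± 0.16. ERRFI1, a feedback inhibitor of the EGF receptor, was at 0.50 ± 0.11. SGK1, a kinase induced by the same receptor, had log2 ratios of 1.62 (HSC3), 0.35 (HSC4) and −0.43 (SAS). KLF9 and ZBTB16, further receptor targets, stayed at or below 0.621 CPM and were not tested.

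Of 18 tested inflammatory genes that glucocorticoids are known to repress, 9 were higher in HPLM at an unadjusted p under 0.05 and 0 lower, and the list median was 0.83. It was 1.48 (HSC3), 0.34 (HSC4) and 1.80 (SAS). CSF3, the granulocyte growth factor, was at 3.71 ± 0.49 on the log2 scale, CXCL2, a neutrophil chemokine, at 2.06 ± 0.38 and IL1A, an alarmin cytokine, at 0.80 ± 0.13 (SE, 3 lines). That inflammatory genes were higher in HPLM was known when the list was drawn up. HSD11B1, which has been reported in fibroblasts and fat cells to be induced by IL-1 and TNF, has 13 tested genes in the list of its regulators, and 2 of these, IL1A and IL1B, were higher at that p and 0 lower, with a list median of 0.03.

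**Figure D5:**
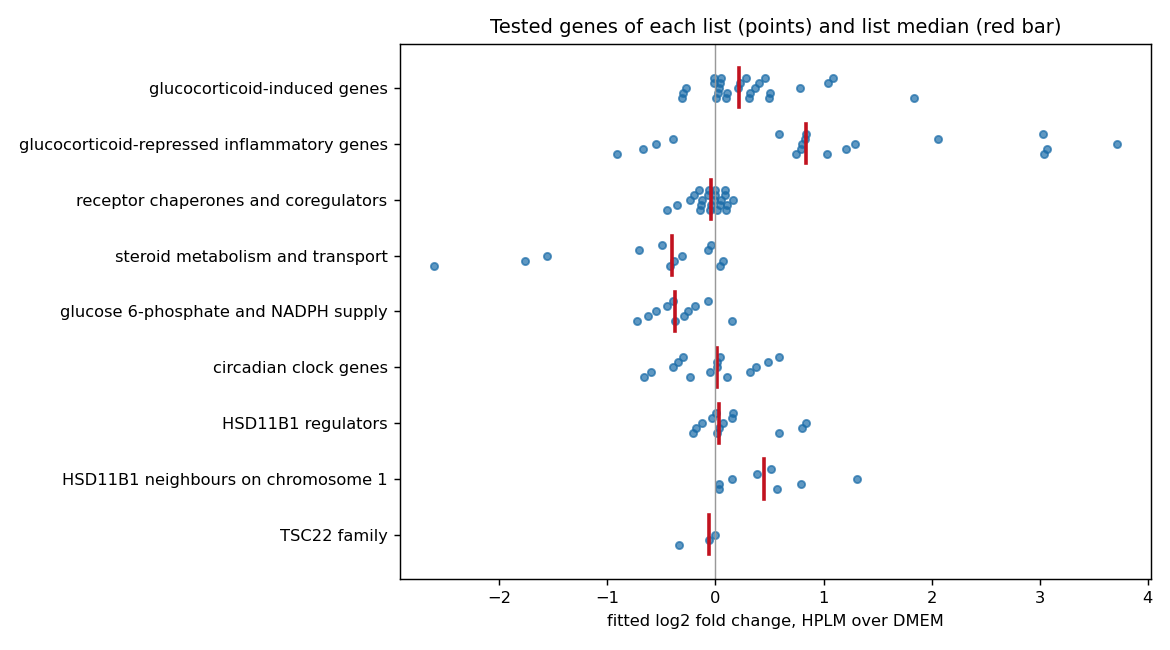
Fitted log2 fold change of HPLM over DMEM (horizontal axis) for each tested gene of the 9 lists, 1 point per gene, with the list median as a red bar. The inflammatory list has its median at 0.83 and the lists of steroid metabolism and of glucose 6-phosphate and NADPH supply have theirs at −0.40 and −0.38.

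The supply of glucose 6-phosphate and NADPH, of which H6PD is one branch, had 6 of 11 tested genes lower in HPLM at an unadjusted p under 0.05 and 0 higher, 8 of 11 lower in all 3 lines and a median of −0.38. IDH1, an NADP-dependent isocitrate dehydrogenase, was at −0.62 ± 0.12 (SE, 3 lines), and SLC37A2, a glucose 6-phosphate exchanger of the endoplasmic reticulum, at −0.55 ± 0.13. IDH1 is also a known target of the stress factor NRF2. In steroid metabolism and transport, 3 of 12 tested genes were lower at that p and 0 higher, with a median of −0.40. These were AKR1C1, AKR1C2 and AKR1C3, ketosteroid reductases of near-identical sequence whose reads can be split uncertainly. AKR1C2 was at 11.5 CPM (HSC3), 0.378 (HSC4) and 0.477 (SAS) in HPLM, against 111 (HSC3), 0.764 (HSC4) and 0.0539 (SAS) in DMEM, so SAS went the other way at a level near 0. AKR1C1 and AKR1C3 also went the other way in SAS, with log2 ratios of 0.73 and 0.63 at low levels. The list median by line was −0.66 (HSC3), −0.30 (HSC4) and 0.11 (SAS), and 2 of the 12 genes were counted as lower in all 3 lines. HSD3B2, 1 of these 2, was at 0 CPM in both SAS libraries and so was not lower there. The 17.2% of all genes lower in all 3 lines was counted in the same way.

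Of 23 tested receptor chaperones and coregulators, 1 was lower at an unadjusted p under 0.05 and 0 higher, with a median of −0.04. The 1 gene was BAG1, a co-chaperone of HSP70, at −0.45 ± 0.09, while IPO13, an importin, was at −0.24 ± 0.12 and EP300, a coactivator, at −0.20 ± 0.12 (SE, 3 lines). FKBP4, the co-chaperone that FKBP5 competes with on the receptor, was at 0.04 ± 0.09. Of 15 clock genes 0 were past that p in either direction, and the median was 0.01. The clock genes TEF, PER3, NR1D1 and PER2 were at −0.60 ± 0.28, −0.66 ± 0.37, −0.34 ± 0.23 and −0.30 ± 0.23. TEF and PER3 had log2 ratios above 0 in SAS, at 0.03 and 0.20. Over the 15 clock genes, 8 fitted values were above 0 and 7 below. The 3 relatives of TSC22D3 were all below 0 in the fit, with TSC22D1 at −0.33 ± 0.18, TSC22D2 at −0.06 ± 0.20 and TSC22D4 at −0.00 ± 0.10, and 0 of 3 were past that p.

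The genes beside HSD11B1 on chromosome 1 were also described. Of 8 tested neighbours, 8 had a positive fitted value, with a list median of 0.45 where that over all genes was 0.00. In HPLM 5 were higher in all 3 lines (16.9% of all genes), and 3 were higher at an unadjusted p under 0.05 in edgeR (5.57% of all genes). The 3 were TRAF3IP3, which begins at 209756032 downstream of HSD11B1, at 0.57 ± 0.17, C1orf74 at 0.39 ± 0.13 and CAMK1G at 1.31 ± 0.51 (SE, 3 lines). CAMK1G was at 2.05 CPM or lower in every library. C1orf74, at 209779208 to 209784559, overlaps TRAF3IP3 on the opposite strand, so reads may have been divided between them with error. Whether position plays a part was not tested. G0S2, an inhibitor of fat breakdown that ends at 209676388 upstream of HSD11B1, had 0.79 ± 0.37 and was not past that p. LAMB3, a laminin chain of the epithelial basement membrane, had 0.03 ± 0.08.

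Between lines, the tested genes in the list of HSD11B1 regulators were split in HSC4 against HSC3. There 2 of 13 rose and 2 fell, where 18.8% of all genes rose and 18.6% fell. In SAS, where HSD11B1 was highest, 7 of 13 tested regulators fell and 0 rose against HSC3, and 7 of 13 fell and 0 rose against HSC4. The count of 0 that rose is limited by the low-count filter, which asks for 3 libraries and so leaves out a gene found in the 2 libraries of 1 line only. PPARG, the fat cell regulator and the 14th entry of the list, was such a gene, at 27.2 CPM in HPLM and 39.0 in DMEM in SAS, against 0.154 in HPLM and 0.367 in DMEM in HSC3 and 0 in both media in HSC4, so it was highest in SAS like HSD11B1 but was not tested. CEBPA, a liver and fat cell factor, had a log2 fold change of 1.01 ± 0.41 in SAS against HSC3 and 0.84 ± 0.41 in SAS against HSC4 and passed in neither (edgeR, adjusted p = 0.10 and 0.15). Over all genes 18.8% rose and 20.6% fell in SAS against HSC3, and 20% rose and 21.3% fell in SAS against HSC4. IL1B was at 76.2 CPM in HPLM and 58.8 in DMEM in SAS, against 427 in HPLM and 196 in DMEM in HSC3 and 356 in HPLM and 298 in DMEM in HSC4. Its log2 fold change was −2.14 ± 0.23 in SAS against HSC3 (edgeR, adjusted p = 0.0016) and −2.29 ± 0.23 in SAS against HSC4 (edgeR, adjusted p = 0.0013). TNF was at 0.265 CPM in HPLM and 0 in DMEM in SAS, against 70.9 in HPLM and 22.1 in DMEM in HSC3 and 16.8 in HPLM and 18.9 in DMEM in HSC4. CEBPB, a factor known to bind the HSD11B1 promoter, had a log2 fold change of −0.91 ± 0.13 in SAS against HSC3 (edgeR, adjusted p = 0.0041) and −0.95 ± 0.13 in SAS against HSC4 (edgeR, adjusted p = 0.0037), and its value between media was 0.17 ± 0.11.

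In the list of glucocorticoid-induced genes more genes rose than fell against HSC3 in both other lines, and SAS against HSC4 was mixed. In SAS 9 of 26 rose and 5 fell against HSC3, where 18.8% of all genes rose and 20.6% fell. Against HSC4, 5 rose and 6 fell in SAS, where 20% of all genes rose and 21.3% fell. In HSC4 9 of 26 rose and 2 fell against HSC3, where 18.8% of all genes rose and 18.6% fell. The medians were 0.26, −0.25 and 0.47 in these 3 contrasts, against −0.01, −0.01 and −0.00 over all genes.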

How the data were processed

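FastQC, kallisto and hg38 are named, per the submitters' processing notes; their versions, the annotation release and any strand setting were not given in the sources used here. The single table that the authors deposited holds expected counts by transcript, of the form called scaled TPM: abundances scaled to library size, so a value is length-corrected and is not a number of reads. The DMEM columns carry a line name and a suffix of unstated meaning; 0 columns were left unused.

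The 161149 rows held 159837 transcripts. The 1312 repeated rows were counted once (they hold 0.21% to 0.27% of a library). Transcripts lacking a symbol, 6878 with 0.362% to 0.479% of a library, were left out, and sums by symbol were rounded. Positions and transcript types came from GENCODE 29 (GRCh38), which held 95.3% of the transcripts. Software was edgeR 4.0.16, DESeq2 1.42.0 and limma 3.58.1 in R 4.3.3. The function filterByExpr (minimum count 10, minimum total 15) left 13236 genes. TMM scaling and edgeR's quasi-likelihood test followed, with line and medium as terms, 2 residual and 4.00 prior degrees of freedom, and Benjamini-Hochberg adjustment over all genes tested. SE is the size of the log2 fold change divided by the root of F. The fit was tested on simulated data with known changes.

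Libraries are paired by cell line; deviations from the medium mean correlated at 0.779 (HSC3), 0.792 (HSC4) and 0.805 (SAS) between the media. The genes and lists were chosen with earlier results of these data known. From each list the 3 genes of smallest p for medium with a mean CPM of 1 or more were named, with further fixed genes; 4 list entries were not analysed here. LAMB3, CAMK1G, PPARG and CEBPA were named after their values were seen, and 1 gene that the rule takes is not reported here. Alternatives were other scalings, filters and tests, no block, left-out lines or libraries, and weighting by transcript length.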

Additional observations from a re-analysis of the deposited data

Results flagged for a closer look

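For 4 genes the lines differed in the direction of the HPLM to DMEM difference. Each line has 1 library per medium, so the difference between lines was not tested, and the genes were chosen with values between media in view. The log2 ratio of NR3C1 was above 0 in HSC3 and below 0 in SAS, a gap of 0.34. That of FKBP5 was above 0 in HSC3 and below 0 in SAS, a gap of 0.66. TSC22D3 was above 0 in HSC4 and below 0 in HSC3, a gap of 0.83, and PER1 was above 0 in SAS and below 0 in HSC3, a gap of 0.54. From protein-coding transcripts alone, the direction no longer differed for NR3C1, at −0.0047 (HSC3), −0.03 (HSC4) and −0.35 (SAS), or for PER1, at 0.05 (HSC3), 0.13 (HSC4) and 0.15 (SAS).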

How the results depend on the processing

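In the medium contrast edgeR called 1 gene of all tested, and this count was 0 with upper-quartile scaling, 0 with no low-count filter, 127 with DESeq2, 9 with limma-voom and 5 with values weighted by transcript length. With no replicate block, that is without the pairing by line, it was 0. Leaving out each line in turn gave 0 to 4. Between lines, leaving out each library in turn gave 2445 to 4844 genes in HSC4 against HSC3, 2848 to 5000 in SAS against HSC3 and 2787 to 5554 in SAS against HSC4, where a line left with 1 library is assumed to vary like the others. Without a scaling factor, HSC4 against HSC3 had 3097 higher and 1753 lower genes, against 2490 and 2462 with TMM, and SAS against HSC4 had 1832 higher and 3454 lower, against 2641 and 2821.

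For HSD11B1 the medium difference could not be fitted without SAS or with weighting by length, where it failed the low-count filter; in DESeq2 it was 1.96. With 1 line left out, the fitted medium difference ran from −0.36 to 0.12 for TSC22D3 (0.12 without HSC3) and from −0.06 to 0.22 for PER1 (−0.06 without SAS), and PER1 was at −0.07 with weighting by length. With 1 library left out, HSC4 against HSC3 ran from −1.45 to 0.98 for HSD11B1, and SAS against HSC3 from −0.34 to 0.59 for H6PD and from −0.22 to 0.10 for NR3C1. From protein-coding transcripts alone, the log2 ratio became −0.0047 for NR3C1 in HSC3, and for PER1 0.05 in HSC3, 0.13 in HSC4 and 0.15 in SAS, against 0.47 from all transcripts in SAS. None of these values passed the test or had one, other than HSD11B1 in DESeq2, and the causes were not tested. The weighting by length and the left-out single libraries were chosen after seeing the data. Depth limits HSD11B1 in HSC3 and HSC4, at about 1 estimated count in DMEM.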

Other observations

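The genes whose log2 CPM followed each gene most closely over the 6 libraries are given as a description, among 7415 or 7416 genes with a range of at least 1 log2 unit. Libraries of 1 line share that line, so the likeness can follow the order of the lines. For HSD11B1 they were PAIP2B (Pearson r = 0.9985), ENY2 (0.9969), TCP1 (0.9956), THAP3 (0.9953) and SAPCD2 (0.9947), each higher in SAS than in the other lines and higher in HPLM within every line. Their medium differences were far smaller than that of HSD11B1: ENY2 was at 435 CPM in HPLM and 344 CPM in DMEM in SAS, 216 in HPLM and 166 in DMEM in HSC3, and 220 in HPLM and 163 in DMEM in HSC4. The closest genes were SORCS2 (0.9939) for H6PD, FSCN1 (0.984) for NR3C1, LTV1 (0.9986) for FKBP5, SMURF2P1 (0.9965) for TSC22D3 and PLEKHN1 (0.9968) for PER1. FSCN1, like NR3C1, was lowest in SAS in HPLM, at 227 CPM against 416 CPM in SAS in DMEM, so 1 library weighs on that likeness.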
